A study of Mus musculus with 6 samples.

Results

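The genes described here are 55 genes of mitosis, taken from a list of gene symbols that names the parts of the spindle, the kinetochore, the spindle checkpoint, the condensin complex and the machinery that starts and ends cell division. They were matched by symbol to the 37991 Ensembl identifiers of the count files, and all 55 were found. The matching used symbols alone and no measured value, but the list and its roles were chosen with earlier results of these data known. The cells were group 2 innate lymphoid cells (ILC2), tissue-resident lymphocytes that make type 2 cytokines, sorted as lineage-negative cells that carry Thy1 and the IL-33 receptor chain ST2. Messenger RNA of about 300000 cells a sample was sequenced in 3 groups of 2 libraries. The cultured group held ILC2 of mesenteric lymph node (MLN) after culture for 1 week with the cytokines IL-7, IL-25 and IL-33, each at 10 ng/ml. The thymus group and the fresh MLN group held ILC2 sequenced without culture. All 3 groups came from mice homozygous for a transgene in which the proximal promoter of lck drives Id1, which blocks DNA binding by E proteins, bred from FVB/N onto C57BL/J by at least 10 backcrosses. Per the labels these mice lack T cell development and make many ILC2 in the thymus, so no group shows ILC2 of an unmodified animal. Whether replicate libraries stem from different animals or cultures is not stated, and a p-value here reflects the variation of these 6 libraries alone.

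Mitosis begins when cyclin B and the kinase Cdk1 become active together. Condensin then folds each replicated chromosome, kinetochores built on centromeres attach the chromosomes to spindle microtubules, and kinesin motors shape the spindle and move the chromosomes along it. The spindle checkpoint delays the anaphase-promoting complex (APC/C), a ubiquitin ligase, until every kinetochore is attached. The central spindle and the contractile ring then divide the cell. Transcripts of most of these genes accumulate late in the cell cycle and are low in resting lymphocytes, which makes them common markers of dividing cells. In resting cells the DREAM complex binds many of their promoters through a short element called the cell cycle genes homology region (CHR), and the factor NF-Y binds CCAAT words near it.

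Library totals were between 35280692 and 40578264 counts. Levels are given as CPM, counts scaled to a common library total, on totals adjusted by TMM factors, in the order of the libraries of a group. A gene was called higher or lower when the edgeR quasi-likelihood F test gave a Benjamini-Hochberg adjusted p under 0.05 over the 16231 genes tested. Log2 fold changes are fitted values from that test with their standard error (SE). Fold changes not on the log2 scale are ratios of group mean CPM. A list of 12 ILC2 markers, wider than the Thy1 and ST2 of the sort, was summed. It came to 15971 and 15742 CPM in cultured cells, 8511 and 8396 CPM in thymus and 10647 and 10618 CPM in fresh MLN, with 1 of the 12 under 1 CPM in thymus and 1 in fresh MLN. Il2ra alone averaged 7828 CPM in cultured cells, 865 CPM in thymus and 765 CPM in fresh MLN. In cultured over fresh MLN, 7 of the 12 were higher and 5 lower (39.4% and 38.1% of all genes). In thymus over fresh MLN, 2 were higher and 7 lower (25.3% and 22%). The 14 thymocyte and T cell markers summed to 116 and 130 CPM in cultured cells, 299.8 and 299.7 CPM in thymus and 233 and 229.6 CPM in fresh MLN. The most abundant on average over the groups were Themis, at a mean of 26.0 CPM in cultured cells, 88.1 CPM in thymus and 46.9 CPM in fresh MLN, and Cd3e, at 45.4, 73.3 and 95.7 CPM in the same groups. Rag1 and Rag2 had no counts in cultured cells, means of 0.528 and 0.599 CPM in thymus and 0.0133 CPM each in fresh MLN, and both were called higher in thymus than in fresh MLN (edgeR adjusted p = 0.00142 and 0.000311). Of the 13 tested T cell markers 8 were higher in thymus than in fresh MLN and 1 was lower, and their part in the results was not tested. In bulk RNA, fewer dividing cells and less mitotic RNA per dividing cell cannot be told apart.

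All 55 mitotic genes were higher in thymus ILC2 than in fresh MLN ILC2, in a comparison of cells from the organ where T cells develop with cells of a peripheral lymphoid organ. The median log2 fold change was 3.97, and the median over all genes tested was 0. The largest change was that of Pbk, a kinase of mitotic cells, with a fold change of 62.6. Next came Ube2c, the ubiquitin-conjugating enzyme of the APC/C, with a fold change of 51.7, and Bub1, a checkpoint kinase, with one of 43.4. Of all genes tested 47.3% were called, 25.3% higher and 22% lower in thymus. Of the 500 genes with the highest log2 fold change, which are 3.08% of those tested, 35 were mitotic genes. The highest adjusted p among the 55 was 3.57e-06, for Cenpn. The thymus libraries lay above the fresh MLN libraries for all 55, where 37.2% of all genes tested showed such separation upward. A test against a 2-fold change called 51 of the 55 higher, beside 5.53% of all genes tested higher and 2.47% lower.

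Cultured MLN ILC2 also had higher levels than fresh MLN ILC2 for 54 of the 55 genes. No group was cultured without the cytokines, so culture itself and the cytokines cannot be told apart. The median log2 fold change was 3.83, against -0.01 over all genes tested. Ube2c had the largest change, with a fold change of 84.4, followed by Pbk with 57.4 and Bub1 with 52.2. The calls were far more common here across the genome, with 77.6% of all genes called, 39.4% higher and 38.1% lower in cultured cells, and only 1 of the 500 genes with the highest log2 fold change was mitotic. The highest adjusted p among the 54 was 3.08e-05, again for Cenpn. A test against a 2-fold change called 50 of the 55 higher, and 19.6% of all genes tested. The exception was Smc4, an ATPase subunit of condensin, with a log2 fold change of -0.17 ± 0.07 (SE, adjusted p = 0.0359). Its call did not hold with RLE factors (adjusted p = 0.0748), with DESeq2 (adjusted p = 0.0712) or without any 1 of the 4 cultured and fresh MLN libraries (adjusted p between 0.071 and 0.194).

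Cultured and thymus ILC2 differed little in these genes by size. The median log2 fold change of cultured over thymus cells was -0.12, and -0.06 over all genes tested, and 47 of the 55 lay within 0.5 of 0. The share of all genes tested within 0.5 of 0 was not counted, but ranks mark it roughly. From the top of the 16231 genes tested, Ccnb1 (0.50) ranked 4675 and Cenpk (-0.52) ranked 11197. Every gene ranked between them lay in about that range. The test called 12 genes higher and 17 lower in cultured cells, beside 72.7% called among all genes tested, 34.8% higher and 37.8% lower. The cultured libraries lay wholly above the thymus libraries for 17 genes and wholly below for 25, where 40.8% and 45.1% of all genes tested did so. Called higher were Cdk1, Aurka, Ube2c, Ccnb1, Cdc20, Plk1, Cenpw, Cenpe, Ncapg, Birc5, Bub1 and Kif20a. Called lower were Kif23, Smc4, Anln, Spc24, Cenpk, Cenpn, Nusap1, Cenpl, Prc1, Cenpi, Ncapd2, Kif11, Ndc80, Racgap1, Ccnb2, Incenp and Kif22. The split depended on the scaling: RLE factors gave 13 higher and 12 lower, upper-quartile factors 12 and 17, and library totals alone 3 and 34. Library totals alone also moved the median of all genes to -0.32. DESeq2 called 11 higher and 8 lower. The calls also rested on single cultured libraries, with 13 higher and 6 lower without the first, and 7 higher and 16 lower without the second. The second cultured library had more CPM than the first for 49 of the 55 genes, with a median log2 ratio of first to second of -0.11, where 48.9% of all genes were higher in the first. Over 14 fits, made with the settings reported and with each alternative scaling, filter, tool, block or left-out library in turn, Cdk1, Aurka and Ube2c were called higher in each, and Kif23, Smc4, Anln, Spc24 and Nusap1 were called lower in each. Kif23 alone passed a test against a 2-fold change, where 15% of all genes tested passed upward and 12.5% downward.

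**Figure D1:**
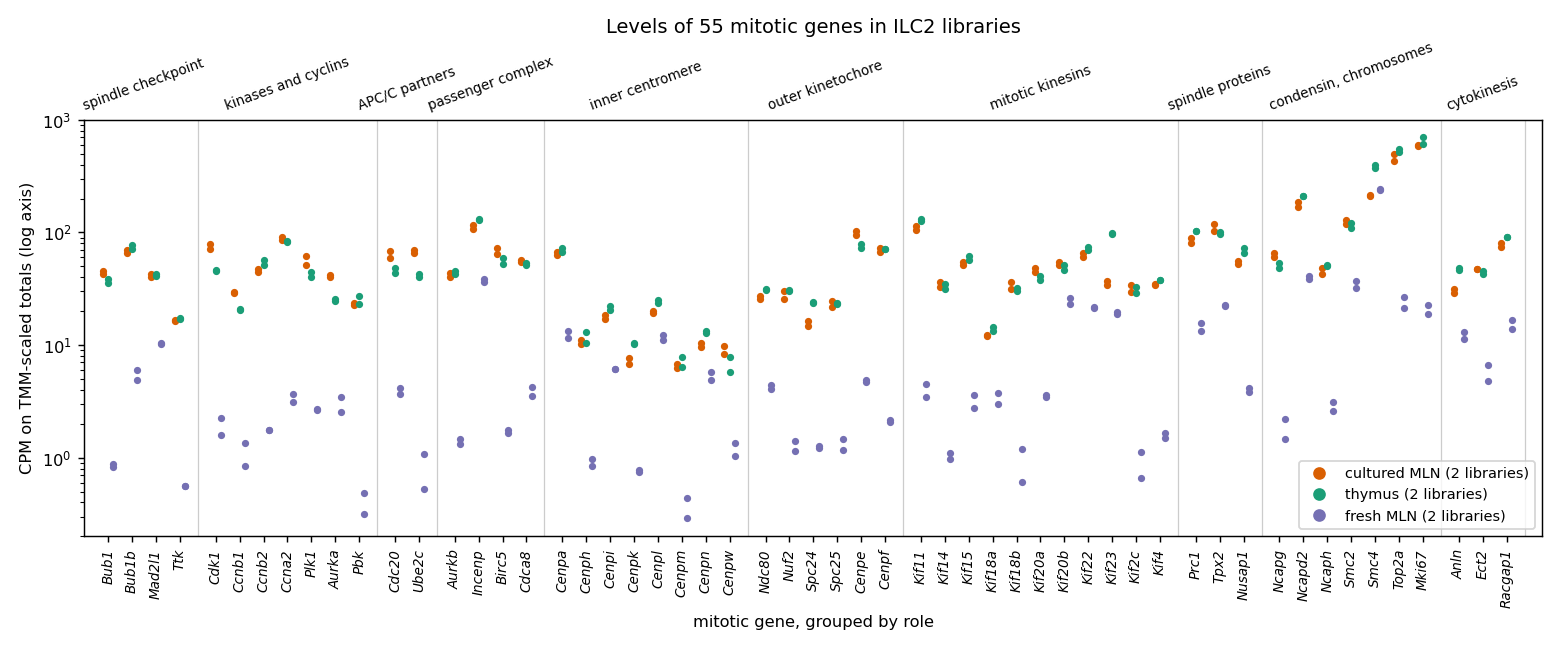
CPM of each mitotic gene (log axis) in every library, with the genes grouped by role along the horizontal axis; each point is 1 library, and each gene has its cultured points left of its thymus points and its fresh MLN points on the right. The fresh MLN points lie below both other groups for 54 of the 55 genes, and Smc4 is the exception, with fresh MLN at 237 and 242 CPM beside 211 and 216 CPM in cultured cells.

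Summed over the 55 genes, the level was 3782 and 4085 CPM in cultured cells, 4386 and 4233 CPM in thymus and 664 and 646.5 CPM in fresh MLN. The mean sum was 6.001-fold higher in cultured than in fresh MLN cells and 6.58-fold higher in thymus than in fresh MLN. The 7 condensin and chromosome genes, Smc4, Top2a and Mki67 among them, made up 55.4% of it in fresh MLN. Their share was 42.6% in cultured cells and 46.55% in thymus. The median log2 fold changes of the 55 genes correspond to larger folds, 14.2 for cultured and 15.7 for thymus over fresh MLN. By group means, 33 genes were highest in thymus and lowest in fresh MLN, 21 were highest in cultured cells and lowest in fresh MLN, and Smc4 ran from thymus through fresh MLN to cultured cells. All 55 were detected in fresh MLN, where the fewest counts in a library were 11, for Cenpm, and where 9 genes had a mean under 1 CPM and 16 had over 10 CPM. The 16 genes over 10 CPM in fresh MLN had a median log2 fold change of 2.08 in thymus over fresh MLN, and the other 39 had one of 4.23; both measures share the fresh MLN counts. Per kilobase of exon, the highest level in cultured cells was that of Mki67, the gene of the proliferation antigen Ki-67, at a mean of 58.6 CPM per kb. In thymus and in fresh MLN the highest was Smc4, at 73.4 and 46.0 CPM per kb. Second in fresh MLN was Incenp, at 8.67 CPM per kb, so Smc4 stood far above the rest there. The lowest per kilobase were Kif18a in cultured cells and thymus, at 1.24 and 1.41 CPM per kb, and Kif14 in fresh MLN, at 0.101 CPM per kb.

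Promoters were examined because most of these genes moved together. RefSeq promoters (GRCm38.p6), each covering 250 bases before to 50 bases after a start site, were given for 47 of the 55 genes. They were searched on both strands for the CHR word TTTGAA and its variant spelled TTCGAA, for CCAAT, and for an E2F word spelled as TTGGCGC, or else spelled as TTCCCGC, or else spelled as TTCGCGC. Matches that overlap were counted separately, TTCGAA reads the same on both strands, and CCAAT on the opposite strand can share bases with TTGGCGC. A CHR word was present in 36 of the 47, or 76.6%, and in 21.7% of the 27025 genes of the table. CCAAT was also present in 36 of the 47, against 41.1% of all genes, and 22 of the 47 held more than 1 CCAAT, or 46.8% against 13.3%. Both a CHR word and CCAAT were present in 66% of the mitotic promoters and 9.65% of all. The E2F words were less common, at 14 of 47, or 29.8%, beside 9.2% of all genes. CHR words lay within 50 bases of the start site in 30 of the 47, or 63.8%, against 6.12% of all genes. By role, 9 of 10 kinesin promoters and 5 of 8 inner centromere promoters held a CHR word, while 6 of those 10 and all 8 of those 8 held CCAAT. A match describes the letters of a window and is neither a binding site nor a cause.

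The promoters shown are those of the 4 genes with the highest thymus over fresh MLN fold change among those whose promoter holds a CHR word (Ube2c, Bub1, Kif18b and Kif2c), and that of Kif23, chosen after its values were seen because it was the gene most reduced in cultured cells relative to thymus. CHR and CCAAT words of either strand are in capitals. Ube2c lies at chr2:164769679-164769978 on the plus strand, Bub1 at chr2:127831810-127832109, Kif18b at chr11:102925075-102925374, Kif2c at chr4:117178723-117179022 and Kif23 at chr9:61946750-61947049, the last 4 on the minus strand.
Ube2c: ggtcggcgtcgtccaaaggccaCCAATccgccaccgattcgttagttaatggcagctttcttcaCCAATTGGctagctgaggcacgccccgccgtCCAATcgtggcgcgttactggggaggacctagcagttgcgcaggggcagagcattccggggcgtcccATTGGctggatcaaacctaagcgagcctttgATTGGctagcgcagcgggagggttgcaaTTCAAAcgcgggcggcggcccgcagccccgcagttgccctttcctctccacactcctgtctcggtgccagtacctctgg
Bub1: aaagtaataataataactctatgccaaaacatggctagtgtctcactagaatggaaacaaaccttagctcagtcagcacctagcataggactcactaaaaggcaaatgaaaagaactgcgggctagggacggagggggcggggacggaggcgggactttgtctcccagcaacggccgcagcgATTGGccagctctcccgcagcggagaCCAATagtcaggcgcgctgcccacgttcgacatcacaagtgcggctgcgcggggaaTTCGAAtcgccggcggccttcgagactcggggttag
Kif18b: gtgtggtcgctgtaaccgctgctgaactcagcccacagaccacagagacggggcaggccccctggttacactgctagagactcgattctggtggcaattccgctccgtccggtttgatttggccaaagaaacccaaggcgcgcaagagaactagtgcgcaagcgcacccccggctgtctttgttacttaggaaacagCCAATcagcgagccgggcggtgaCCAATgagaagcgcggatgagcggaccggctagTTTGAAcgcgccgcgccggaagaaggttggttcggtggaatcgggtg
Kif2c: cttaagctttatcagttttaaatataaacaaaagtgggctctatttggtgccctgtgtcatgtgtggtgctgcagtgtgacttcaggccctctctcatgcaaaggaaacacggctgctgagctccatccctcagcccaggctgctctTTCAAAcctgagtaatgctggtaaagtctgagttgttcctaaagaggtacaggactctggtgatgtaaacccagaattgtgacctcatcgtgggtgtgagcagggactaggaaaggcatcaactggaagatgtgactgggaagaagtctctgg
Kif23: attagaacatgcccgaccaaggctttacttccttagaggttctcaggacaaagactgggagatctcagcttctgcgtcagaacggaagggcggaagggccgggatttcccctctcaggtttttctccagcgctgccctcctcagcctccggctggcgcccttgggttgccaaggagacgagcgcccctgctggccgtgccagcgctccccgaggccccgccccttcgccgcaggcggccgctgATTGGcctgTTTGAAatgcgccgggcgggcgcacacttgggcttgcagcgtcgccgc
Ube2c held 6 CCAAT words and a CHR word whose first base lay 29 bases before the start site. Bub1 and Kif18b each held a pair of CCAAT words upstream of a CHR word that began at base 15 and base 4 of the transcript, counted from 1 at the start site. Kif2c, which rose about as much as Kif18b, held no CCAAT and a CHR word 103 bases upstream. Kif23 held a CCAAT word 7 bases upstream and a CHR word at base 3.

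**Figure D2:**
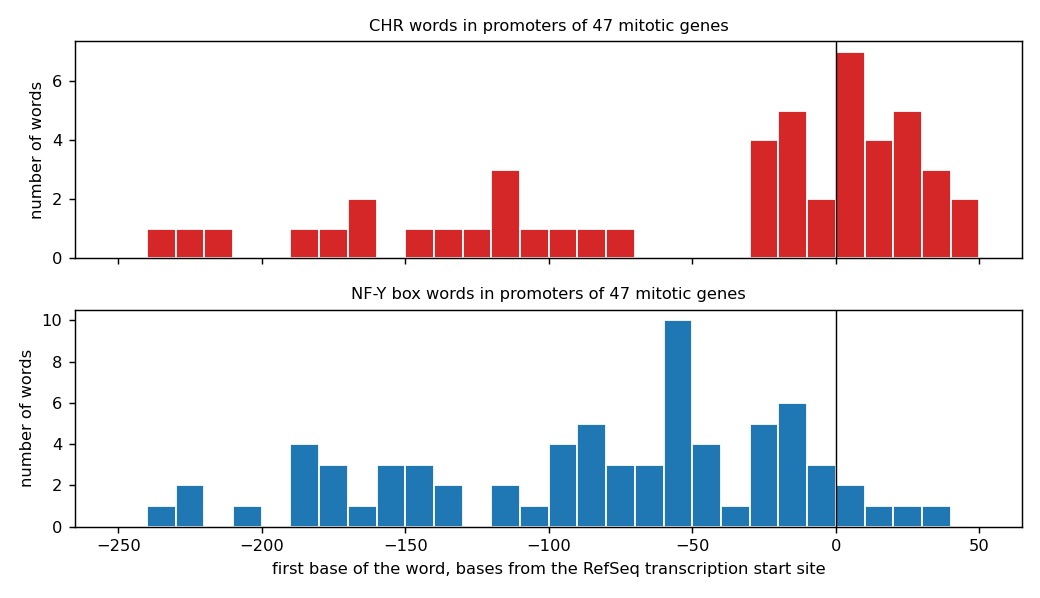
Number of CHR words (top) and of CCAAT words, which NF-Y binds (bottom), by the distance of their first base from the first listed RefSeq start site, in 47 mitotic promoters. Of 49 CHR words 32 lie within 50 bases of the start, and 67 of 72 CCAAT words lie upstream of it.

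The spindle checkpoint genes rose strongly in both comparisons with fresh MLN, apart from a smaller change of Mad2l1. Bub1 (ENSMUSG00000027379), a kinase that recruits checkpoint proteins to kinetochores, had 42.6 and 45.9 CPM in cultured cells, 38.3 and 35.4 CPM in thymus and 0.873 and 0.823 CPM in fresh MLN. Ttk, the kinase that starts the checkpoint signal, had 16.4 and 16.7 CPM in cultured cells, 17.3 and 17 CPM in thymus and 0.565 and 0.557 CPM in fresh MLN. Bub1b, the BubR1 subunit of the complex that inhibits the APC/C, had 65.9 and 69.9 CPM in cultured cells, 77.8 and 71.1 CPM in thymus and 4.93 and 6.05 CPM in fresh MLN. The fresh MLN libraries were the lowest for these 3 genes, and the log2 fold changes of thymus over fresh MLN were 5.44 ± 0.13 (SE, adjusted p = 4.77e-12) for Bub1, 4.92 ± 0.16 for Ttk and 3.76 ± 0.10 for Bub1b. Mad2l1, which binds and holds Cdc20, had 40.6 and 43 CPM in cultured cells, 42.7 and 41.2 CPM in thymus and 10.5 and 10.1 CPM in fresh MLN. Its log2 fold change of thymus over fresh MLN was the smallest of the 4, at 2.03 ± 0.08. Between cultured and thymus cells, Bub1 was higher in cultured cells by a log2 fold change of 0.26 ± 0.08 (SE, adjusted p = 0.0101). Bub1b and Ttk did not pass, at -0.13 and -0.05, although their cultured libraries lay below their thymus libraries, and Mad2l1 overlapped.

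Of the 7 kinases and cyclins that start mitosis, 4 were higher and 1 was lower in cultured than in thymus cells. That is 71.4% called, near the 72.7% of all genes tested. Cdk1 (ENSMUSG00000019942), the kinase that drives entry into mitosis, had 71.8 and 78.7 CPM in cultured cells, 45 and 46.5 CPM in thymus and 2.26 and 1.59 CPM in fresh MLN. Ccnb1, cyclin B1, its main partner, had 29.6 and 28.9 CPM in cultured cells, 20.4 and 21 CPM in thymus and 0.848 and 1.35 CPM in fresh MLN. Aurka, a kinase of centrosomes and spindle poles, had 41.8 and 40.2 CPM in cultured cells, 24.5 and 25.8 CPM in thymus and 3.47 and 2.52 CPM in fresh MLN. For these 3 genes every cultured library lay above every thymus library, and every thymus library above every fresh MLN library. Of all genes tested, 40.8% showed the first separation and 37.2% the second. The log2 fold changes of cultured over thymus cells were 0.72 ± 0.09 (SE, adjusted p = 7.83e-06) for Cdk1, 0.50 ± 0.11 for Ccnb1 and 0.71 ± 0.10 for Aurka. Plk1, a kinase of centrosome maturation and cytokinesis, had 51.7 and 62.2 CPM in cultured cells, 40.1 and 44.4 CPM in thymus and 2.67 and 2.71 CPM in fresh MLN, with a log2 fold change of 0.43 ± 0.09 for cultured over thymus cells. Ccnb2, cyclin B2, was the one member of this role called lower in cultured than in thymus cells, by -0.22 ± 0.08 (SE, adjusted p = 0.0196), with 44.8 and 47.3 CPM in cultured cells, 51.2 and 56.4 CPM in thymus and 1.75 and 1.75 CPM in fresh MLN. Ccna2, cyclin A2, which acts from S phase to early mitosis, had 85.5 and 90.3 CPM in cultured cells, 82.6 and 84.1 CPM in thymus and 3.67 and 3.11 CPM in fresh MLN and did not pass between cultured and thymus cells (0.08), and it overlaps Exosc9 on the opposite strand. Pbk (ENSMUSG00000022033) had 22.6 and 23.6 CPM in cultured cells, 27.2 and 23.3 CPM in thymus and 0.488 and 0.319 CPM in fresh MLN, with overlap between cultured and thymus libraries. Ccnb1 and Ccnb2 each have a named pseudogene, as do Kif22 and Kif4 among the kinesins, which makes their counts less certain. Against fresh MLN, the 7 genes had log2 fold changes between 3.07 for Aurka and 5.95 for Pbk in thymus, and between 3.77 and 5.83, for the same genes, in cultured cells.

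Both APC/C partners were highest in cultured cells. Ube2c (ENSMUSG00000001403), which adds the first ubiquitins to APC/C substrates, had 65.9 and 69.9 CPM in cultured cells, 40.6 and 42.7 CPM in thymus and 1.08 and 0.531 CPM in fresh MLN. Cdc20, the activator that the checkpoint inhibits, had 58.8 and 67.8 CPM in cultured cells, 43.7 and 48.6 CPM in thymus and 4.16 and 3.69 CPM in fresh MLN. The groups did not overlap for either gene. The log2 fold changes of cultured over thymus cells were 0.71 ± 0.10 (SE, adjusted p = 2.73e-05) for Ube2c and 0.46 ± 0.09 for Cdc20. Both genes overlap a protein-coding gene on the opposite strand in GENCODE M21, Tnnc2 for Ube2c and Elovl1 for Cdc20, and the strand setting of the counts is not given in the sources used here, so these counts may include reads of the neighbour.

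The chromosomal passenger complex, which corrects faulty attachments, held 1 gene with a small change and 3 with large ones. Incenp, its scaffold, had 106 and 117 CPM in cultured cells, 128 and 132 CPM in thymus and 38.4 and 36.7 CPM in fresh MLN. Aurkb, its kinase, had 39.8 and 43.4 CPM in cultured cells, 42.8 and 45 CPM in thymus and 1.34 and 1.46 CPM in fresh MLN. Birc5, the survivin subunit, had 64.1 and 72.5 CPM in cultured cells, 52.9 and 59.2 CPM in thymus and 1.67 and 1.75 CPM in fresh MLN. The mean ratio of Incenp to Aurkb counts was 2.68 in cultured cells, 2.96 in thymus and 26.9 in fresh MLN. The fold change of thymus over fresh MLN was 3.46 for Incenp and 32.8 for Birc5. Cdca8, the borealin subunit, had 54.3 and 56.8 CPM in cultured cells, 51.4 and 53.9 CPM in thymus and 4.26 and 3.53 CPM in fresh MLN, and overlaps 9930104L06Rik on the opposite strand. Between cultured and thymus cells, Birc5 was higher at 0.29 ± 0.08 (SE, adjusted p = 0.00748) and Incenp lower at -0.22 ± 0.07, while Aurkb (-0.08) and Cdca8 (0.08) did not pass.

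**Figure D3:**
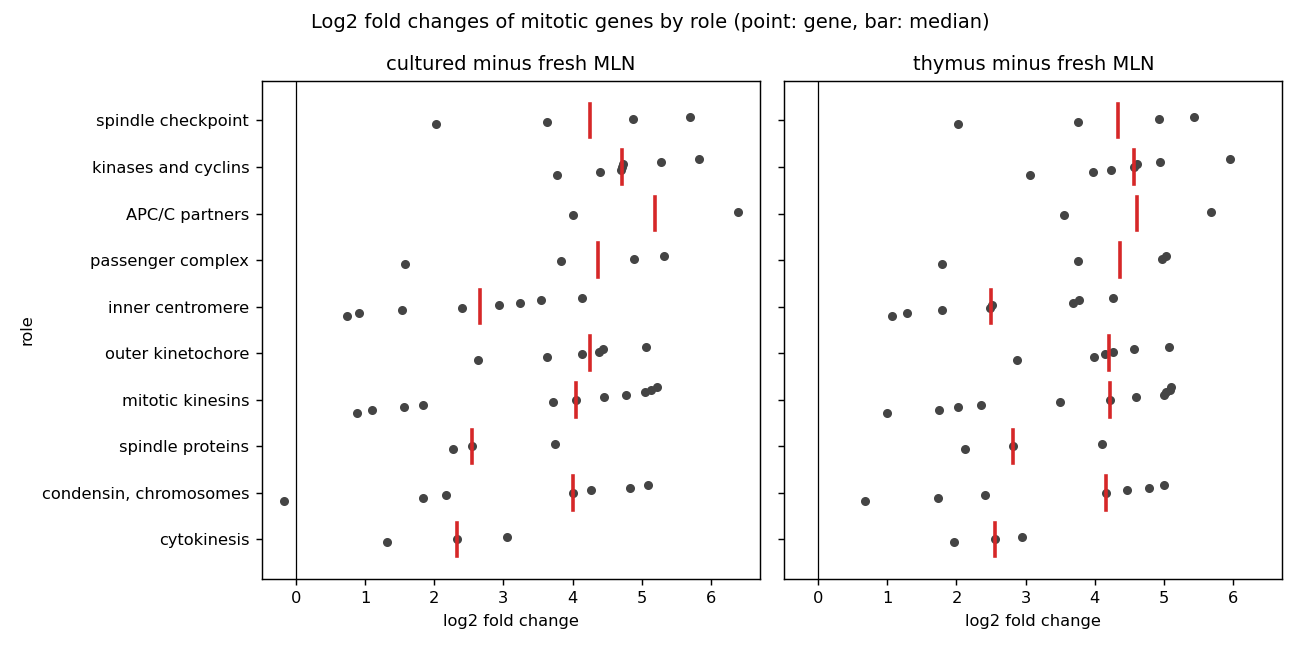
Log2 fold changes of cultured over fresh MLN (left) and of thymus over fresh MLN (right) by role; each point is a gene and each bar the median of its role. The APC/C partners have the highest medians, at 5.198 in cultured cells and 4.62 in thymus, and the inner centromere, spindle protein and cytokinesis genes the lowest, at 2.33 to 2.82.

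The inner centromere genes, which lay the base of the kinetochore on centromeric chromatin, changed less than most other roles, with a median log2 fold change of 2.67 for cultured over fresh MLN and 2.50 for thymus over fresh MLN. Cenpa, the histone H3 variant that marks centromeres, had 63.1 and 67.3 CPM in cultured cells, 66.7 and 72 CPM in thymus and 11.5 and 13.3 CPM in fresh MLN. Cenpl, a subunit of the constitutive centromere network, had 19.1 and 19.9 CPM in cultured cells, 23.8 and 25 CPM in thymus and 11 and 12.3 CPM in fresh MLN. Its partner Cenpn, which contacts the Cenpa nucleosome, had 9.62 and 10.3 CPM in cultured cells, 13.2 and 12.8 CPM in thymus and 4.91 and 5.73 CPM in fresh MLN. Cenpl and Cenpn had the smallest changes of the role, with fold changes of thymus over fresh MLN of 2.10 and 2.45. Cenpm, another network subunit, had the largest, a fold change of 19.4, with 6.76 and 6.23 CPM in cultured cells, 6.38 and 7.79 CPM in thymus and 0.437 and 0.292 CPM in fresh MLN. Cenph had 10.1 and 11.2 CPM in cultured cells, 10.5 and 13.2 CPM in thymus and 0.976 and 0.850 CPM in fresh MLN, and Cenpk, which sits in the same subcomplex, had 7.72 and 6.72 CPM in cultured cells, 10.2 and 10.5 CPM in thymus and 0.745 and 0.770 CPM in fresh MLN. Cenpi, which like Cenpm belongs to that subcomplex too, had 17.2 and 18.5 CPM in cultured cells, 22 and 20.6 CPM in thymus and 6.17 and 6.19 CPM in fresh MLN. The cultured and thymus libraries overlapped for Cenpa, Cenph and Cenpm. Cenpk was lower in cultured than in thymus cells by -0.52 ± 0.14 (SE, adjusted p = 0.00446), as were Cenpn at -0.38 ± 0.12, Cenpl at -0.32 ± 0.09 and Cenpi at -0.25 ± 0.10. Cenpw, a histone-fold protein that pairs with CENP-T, had 8.39 and 9.81 CPM in cultured cells, 5.81 and 7.82 CPM in thymus and 1.03 and 1.35 CPM in fresh MLN and was the one gene of the role called higher in cultured cells, by 0.42 ± 0.18 (SE, adjusted p = 0.0463). Cenpk overlaps Ppwd1 on the opposite strand.

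The outer kinetochore genes, whose products hold microtubules, had a median log2 fold change of 4.25 for cultured over fresh MLN and 4.20 for thymus over fresh MLN. Ndc80, which binds the microtubule, had 25.4 and 27.1 CPM in cultured cells, 30.8 and 31.2 CPM in thymus and 4.03 and 4.43 CPM in fresh MLN. Nuf2, its coiled-coil partner, had 25.8 and 30.1 CPM in cultured cells, 30.8 and 30.04 CPM in thymus and 1.41 and 1.14 CPM in fresh MLN. The mean ratio of Ndc80 to Nuf2 counts was 0.943 in cultured cells, 1.02 in thymus and 3.37 in fresh MLN. Spc24, which anchors the Ndc80 complex to the inner kinetochore, had 14.7 and 16.2 CPM in cultured cells, 23.5 and 24.1 CPM in thymus and 1.21 and 1.27 CPM in fresh MLN. Spc25, its dimer partner, had 21.9 and 24.4 CPM in cultured cells, 23.4 and 23.2 CPM in thymus and 1.46 and 1.17 CPM in fresh MLN. Spc24 was lower in cultured than in thymus cells by -0.62 ± 0.10 (SE, adjusted p = 9.42e-05), while Spc25 overlapped and did not pass (-0.01), and the mean ratio of Spc24 to Spc25 was 0.668 in cultured cells and 1.02 in thymus. Ndc80 was lower too, at -0.24 ± 0.09. Cenpe, a kinesin that carries chromosomes to the spindle equator, had 95 and 103 CPM in cultured cells, 78.4 and 72.6 CPM in thymus and 4.68 and 4.86 CPM in fresh MLN and was higher in cultured than in thymus cells by 0.39 ± 0.07 (SE, adjusted p = 0.000263). Cenpf, a large coiled-coil protein of the corona, had 67.7 and 73.3 CPM in cultured cells, 71.5 and 70.6 CPM in thymus and 2.16 and 2.07 CPM in fresh MLN, with overlap between cultured and thymus libraries.

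The 11 mitotic kinesins ranged more widely than any other role but the condensin group, from a fold change of 1.99 for Kif20b to one of 34.6 for Kif18b in thymus over fresh MLN. Kif18b, which shortens astral microtubules, had 31.6 and 36 CPM in cultured cells, 30.01 and 32.1 CPM in thymus and 1.18 and 0.611 CPM in fresh MLN. Kif2c, the depolymerase MCAK of centromeres, had 29.4 and 34.2 CPM in cultured cells, 28.8 and 32.9 CPM in thymus and 1.13 and 0.664 CPM in fresh MLN. Kif14, which acts at the midbody, had 33 and 36.2 CPM in cultured cells, 35.1 and 31.7 CPM in thymus and 1.10 and 0.982 CPM in fresh MLN. For all 3 genes the cultured and thymus libraries overlapped, and both lay far above fresh MLN. Kif11, which pushes the spindle poles apart, had 104 and 114 CPM in cultured cells, 132 and 127 CPM in thymus and 4.47 and 3.48 CPM in fresh MLN, and Kif15, which backs it up, had 51 and 54.2 CPM in cultured cells, 61.1 and 57.1 CPM in thymus and 3.60 and 2.76 CPM in fresh MLN. Kif4, a chromokinesin that works with Prc1, had 34.9 and 34.3 CPM in cultured cells, 37.9 and 38.1 CPM in thymus and 1.64 and 1.49 CPM in fresh MLN. Kif11 was lower in cultured than in thymus cells at -0.24 ± 0.08 (SE, adjusted p = 0.0138), and Kif15 and Kif4 lay lower without passing (-0.17 and -0.14). Kif20a, which brings the passenger complex to the central spindle, had 44.6 and 47.9 CPM in cultured cells, 40.7 and 38.1 CPM in thymus and 3.57 and 3.42 CPM in fresh MLN and was higher in cultured cells at 0.23 ± 0.08 (SE, adjusted p = 0.0168), a direction that turned to -0.02 with library totals alone. Kif20a overlaps Cdc23 on the opposite strand, as Kif4 does Pdzd11 and Kif18a does Mettl15. Kif18a, which damps chromosome oscillations, had 11.9 and 12.4 CPM in cultured cells, 14.4 and 13.2 CPM in thymus and 3.75 and 3.03 CPM in fresh MLN. Kif22, a chromokinesin, had 60.7 and 66.3 CPM in cultured cells, 69.97 and 74.5 CPM in thymus and 21.1 and 21.8 CPM in fresh MLN. Kif20b, a motor of the late cytokinetic furrow, had 51.5 and 54.2 CPM in cultured cells, 51.1 and 46.8 CPM in thymus and 26.1 and 23.1 CPM in fresh MLN. These 3 changed less against fresh MLN than Kif18b, Kif2c and Kif14, and of them Kif22 alone was called between cultured and thymus cells, at -0.19 ± 0.07.

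Kif23 (ENSMUSG00000032254) had the largest change of the 55 genes between cultured and thymus cells. It encodes the motor subunit of centralspindlin, the complex that bundles the central spindle and recruits Ect2. It had 34.4 and 37 CPM in cultured cells, 99.5 and 97.3 CPM in thymus and 18.8 and 19.8 CPM in fresh MLN, so its cultured libraries lay between the other groups and well below thymus. Its log2 fold change was 2.35 ± 0.08 (SE, adjusted p = 5.82e-11) for thymus over fresh MLN and 0.89 ± 0.08 (SE, adjusted p = 1.72e-07) for cultured over fresh MLN. Cultured cells were lower than thymus by -1.46 ± 0.07 (SE, adjusted p = 7.88e-10), and over the 14 fits this value ran between -1.72 and -1.40. The test against a 2-fold change gave an adjusted p of 1.41e-05 in edgeR for this difference, and 12.5% of all genes tested passed that test downward.

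**Figure D4:**
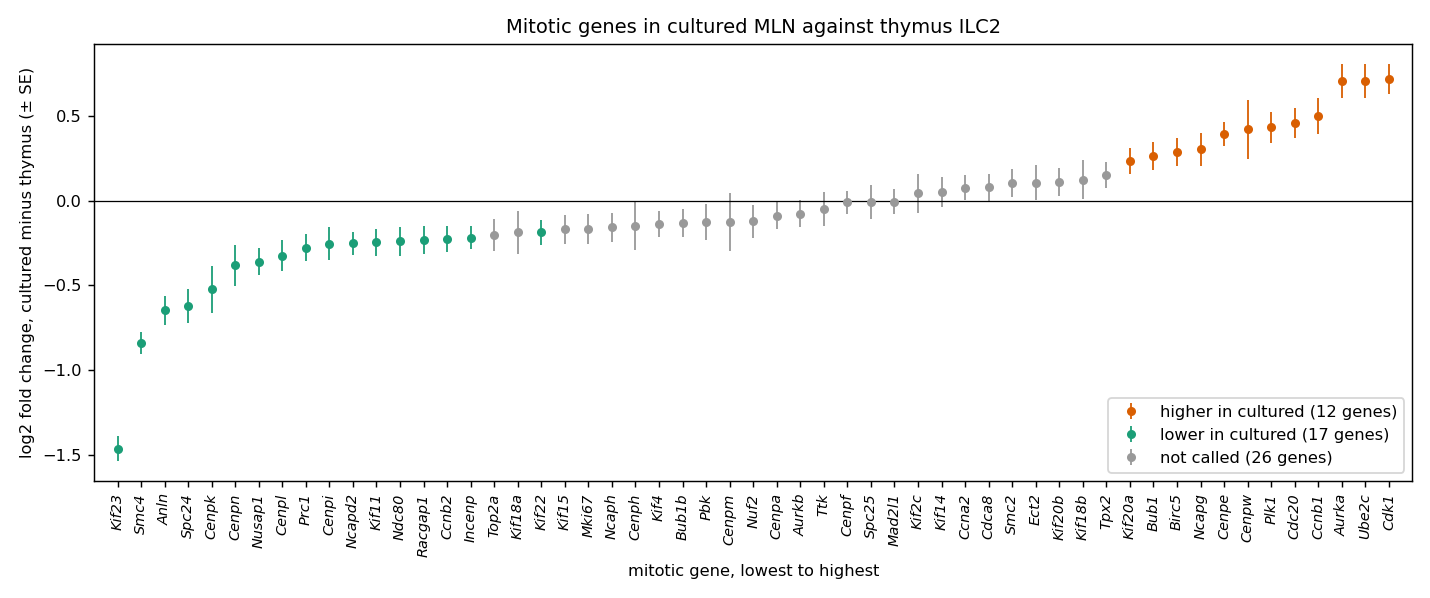
Log2 fold change of cultured over thymus cells for each mitotic gene, lowest to highest, with bars of ± 1 SE; orange points were called higher in cultured cells, green points lower, and grey points were not called. Kif23 at -1.46 and Smc4 at -0.84 are the lowest, and Cdk1, Ube2c and Aurka, near 0.7, the highest; with library totals alone Kif20a turned to -0.02.

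The spindle proteins that bundle or nucleate microtubules changed by moderate amounts. Prc1, which crosslinks antiparallel microtubules of the central spindle, had 79.9 and 89.5 CPM in cultured cells, 103 and 102 CPM in thymus and 13.3 and 15.8 CPM in fresh MLN. Tpx2, which activates Aurora A, had 102 and 118 CPM in cultured cells, 96.2 and 102 CPM in thymus and 22.9 and 22.4 CPM in fresh MLN. Nusap1, which binds microtubules near chromosomes, had 51.9 and 55.8 CPM in cultured cells, 65 and 73.2 CPM in thymus and 4.19 and 3.85 CPM in fresh MLN. Nusap1 had the largest change of the 3, with a fold change of thymus over fresh MLN of 17.2, against 7.06 for Prc1 and 4.37 for Tpx2. Nusap1 was lower in cultured than in thymus cells by -0.36 ± 0.08 (SE, adjusted p = 0.00128) and Prc1 by -0.28 ± 0.08, both without overlap. Tpx2 lay higher in cultured libraries but did not pass (0.15). Prc1 and Nusap1 overlap Rccd1 and Oip5 on the opposite strand.

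Subunits of condensin differed widely from each other. In thymus over fresh MLN the log2 fold changes ran from 0.67 for Smc4 to 4.79 for Ncapg, a range of 4.12, against 3.24 in the passenger complex and 1.70 in the Ndc80 complex. Smc4 (ENSMUSG00000034349) had 211 and 216 CPM in cultured cells, 394 and 370.0 CPM in thymus and 237 and 242 CPM in fresh MLN. Smc2, with which it forms the ATPase core shared by condensin I and condensin II, had 118 and 128 CPM in cultured cells, 121 and 109 CPM in thymus and 36.7 and 32 CPM in fresh MLN. Smc4 was lowest in cultured cells, at -0.84 ± 0.07 (SE, adjusted p = 9.82e-08) relative to thymus, while Smc2 overlapped there (0.10). The mean ratio of Smc4 to Smc2 counts was 1.73 in cultured cells, 3.33 in thymus and 7.01 in fresh MLN. Smc4 carries the microRNA genes Mir15b and Mir16-2 in its locus on the same strand, and what they add to its counts was not tested. Ncapg, a HEAT-repeat subunit of condensin I, had 60.2 and 65.6 CPM in cultured cells, 53.6 and 48.4 CPM in thymus and 2.21 and 1.46 CPM in fresh MLN. Ncapd2, the other HEAT-repeat subunit, had 169 and 186 CPM in cultured cells, 212 and 211 CPM in thymus and 40.9 and 38.3 CPM in fresh MLN. Ncaph, the kleisin that closes the ring, had 43.1 and 48.7 CPM in cultured cells, 51.7 and 50.6 CPM in thymus and 3.13 and 2.58 CPM in fresh MLN. Ncapd2 changed least of these 3 against fresh MLN, and the mean ratio of Ncapd2 to Ncapg counts was 2.82 in cultured cells, 4.15 in thymus and 22.4 in fresh MLN. Ncapg was higher in cultured than in thymus cells by 0.30 ± 0.10 (SE, adjusted p = 0.0129) and Ncapd2 lower by -0.25 ± 0.07. Ncapg overlaps Lcorl on the opposite strand.

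Top2a and Mki67 were among the 3 highest genes per kilobase in cultured cells and in thymus. Top2a, which untangles sister chromatids, had 434 and 493 CPM in cultured cells, 552 and 514 CPM in thymus and 26.7 and 21.3 CPM in fresh MLN. Mki67, whose product coats mitotic chromosomes, had 579.8 and 600.0 CPM in cultured cells, 709.5 and 616 CPM in thymus and 22.5 and 19 CPM in fresh MLN. Their fresh MLN libraries lay between 19.0 and 26.7 CPM, and their fold changes of thymus over fresh MLN were 22.2 for Top2a and 32 for Mki67. Both lay lower in cultured than in thymus libraries, without passing (-0.20 and -0.17).

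The cytokinesis genes had the smallest median changes against fresh MLN of the roles in cultured cells, at a log2 fold change of 2.33. Anln, which links actin, myosin and septins in the contractile ring, had 29.2 and 31.3 CPM in cultured cells, 48.4 and 46.3 CPM in thymus and 12.9 and 11.2 CPM in fresh MLN. Ect2, which acts in forming that ring, had 47.7 and 47.4 CPM in cultured cells, 45.8 and 42.6 CPM in thymus and 6.68 and 4.75 CPM in fresh MLN. Racgap1, the partner of Kif23 in centralspindlin, had 73.6 and 80.4 CPM in cultured cells, 90.4 and 90.6 CPM in thymus and 13.9 and 16.7 CPM in fresh MLN. Anln was lower in cultured than in thymus cells by -0.65 ± 0.09 (SE, adjusted p = 1.52e-05), as was Racgap1 by -0.23 ± 0.08, and Ect2 did not pass (0.11). The 2 centralspindlin genes differed in size of change, and the ratio of Kif23 to Racgap1 counts was 0.468 and 0.46 in the cultured libraries, 1.10 and 1.07 in the thymus libraries and 1.34 and 1.19 in the fresh MLN libraries.

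Ratios of partner genes within a library do not depend on the scaling of that library, and since counts were not divided by length they are read across groups only. The pairs were chosen after the values were seen, and with 2 libraries a group a permutation cannot go below p = 0.333, so no test was made. For Kif23 to Racgap1, Smc4 to Smc2 and Ncapd2 to Ncapg the cultured libraries were lowest, without overlap with thymus. The same held for Incenp to Aurkb, Ndc80 to Nuf2 and Spc24 to Spc25. The ratio of Ccnb1 to Ccnb2 was 0.636 in cultured cells, 0.385 in thymus and 0.629 in fresh MLN, and that of Cdk1 to Ccna2 was 0.856 in cultured cells, 0.549 in thymus and 0.564 in fresh MLN. In both pairs the cultured libraries lay above the thymus libraries.

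**Figure D5:**
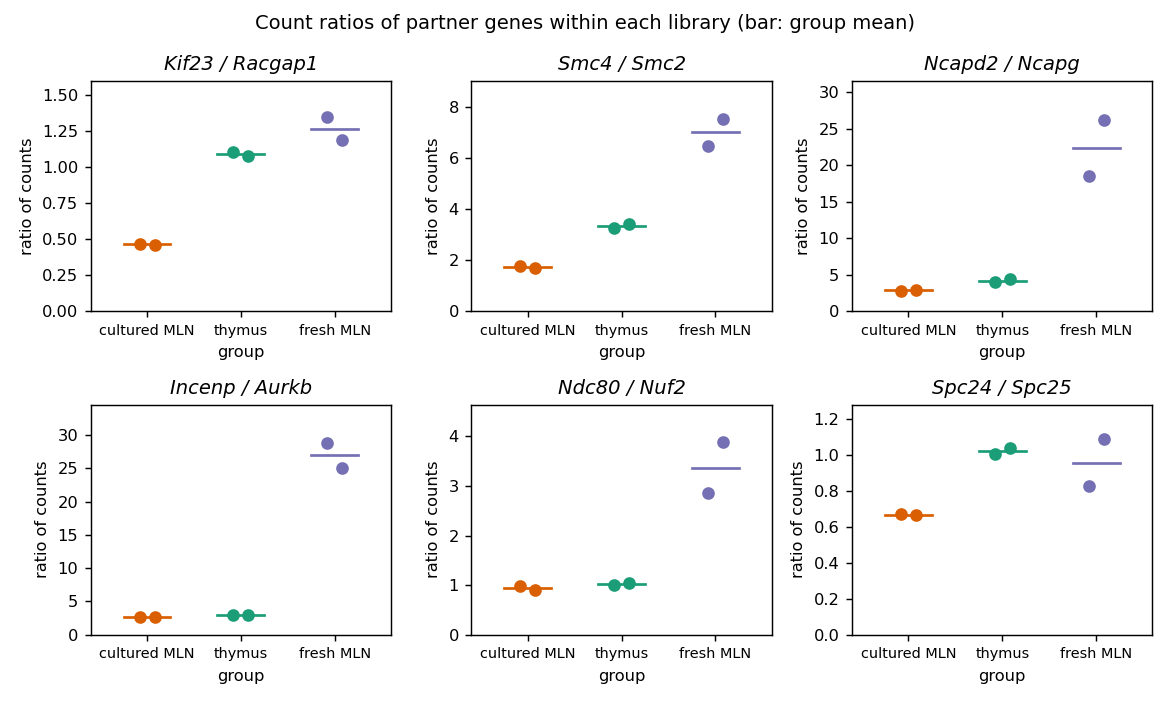
Ratio of the counts of partner genes in each library, with cultured MLN left, thymus in the middle and fresh MLN right; points are libraries and bars group means, and each axis starts at 0. Kif23 to Racgap1 has a mean of 0.464 in cultured cells, 1.09 in thymus and 1.27 in fresh MLN, and Incenp to Aurkb one of 2.68, 2.96 and 26.9 in the same order.

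Other genes of the same processes, listed apart from the 55, were counted in the same way. Across all genes tested 77.6% were called in cultured over fresh MLN, 47.3% in thymus over fresh MLN and 72.7% in cultured over thymus cells. Of 29 other kinetochore and centromere genes 24 were higher in thymus than in fresh MLN and 5 were not called. In cultured cells 20 were higher and 5 lower than in fresh MLN, and 5 were higher and 13 lower than in thymus. The shares of the list called were 86.2% in cultured over fresh MLN (77.6% of all genes), 82.8% in thymus over fresh MLN (47.3%) and 62.1% in cultured over thymus cells (72.7%). Ska1, which helps the kinetochore follow a shrinking microtubule, averaged 9.20 ± 1.06 CPM in cultured cells, 8.68 ± 1.68 CPM in thymus and 0.195 ± 0.0509 CPM in fresh MLN (SD, n = 2 each, here and in the means that follow). Knl1, the scaffold that Bub1 binds, averaged 46 ± 2.09 CPM in cultured cells, 58.8 ± 5.20 CPM in thymus and 2.29 ± 0.293 CPM in fresh MLN. Itgb3bp, which encodes CENP-R, averaged 2.81 ± 0.0858 CPM in cultured cells, 6.75 ± 1.05 CPM in thymus and 8.47 ± 1.39 CPM in fresh MLN. Ska1 and Knl1 were called higher in both comparisons with fresh MLN, and Itgb3bp lower in cultured than in thymus cells (log2 fold change -1.27 ± 0.18).

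Of 23 other checkpoint and APC/C genes, 14 were higher in thymus than in fresh MLN and 2 lower, 14 higher and 8 lower in cultured than in fresh MLN, and 7 higher and 10 lower in cultured than in thymus cells. The list had 95.7% in cultured over fresh MLN (77.6% of all genes), 69.6% in thymus over fresh MLN (47.3%) and 73.9% in cultured over thymus cells (72.7%) called. Their median log2 fold change was 0.29 for cultured over fresh MLN and 0.36 for thymus over fresh MLN, beside 3.83 and 3.97 for the 55. Espl1, the separase that cuts cohesin, averaged 53.1 ± 1.54 CPM in cultured cells, 61.9 ± 3.02 CPM in thymus and 1.71 ± 0.126 CPM in fresh MLN. Anapc5, a subunit of the APC/C itself, averaged 111 ± 3.20 CPM in cultured cells, 289.7 ± 10.1 CPM in thymus and 184 ± 1.70 CPM in fresh MLN. Espl1 was higher in both comparisons with fresh MLN, and Anapc5 was lower in cultured than in thymus cells (log2 fold change -1.38 ± 0.07). Of 17 other mitotic kinases and phosphatases, 15 were higher in each comparison with fresh MLN, and 94.1% in cultured over fresh MLN (77.6% of all genes), 88.2% in thymus over fresh MLN (47.3%) and 82.4% in cultured over thymus cells (72.7%) were called. Nek2, a centrosome kinase, averaged 26.8 ± 1.71 CPM in cultured cells, 22.4 ± 1.24 CPM in thymus and 0.849 ± 0.0382 CPM in fresh MLN. Nek6, a kinase of the spindle, averaged 31.6 ± 1.94 CPM in cultured cells, 2.95 ± 0.521 CPM in thymus and 1.28 ± 0.155 CPM in fresh MLN. Cdc25b, a phosphatase that activates Cdk1, averaged 55.7 ± 3.94 CPM in cultured cells, 189 ± 2.48 CPM in thymus and 40.2 ± 0.472 CPM in fresh MLN. Nek6 was higher (log2 fold change 3.42 ± 0.14) and Cdc25b lower (-1.76 ± 0.07) in cultured than in thymus cells.

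Other kinesin genes, mainly of cargo transport, were listed beside the mitotic ones. The list also held the light chains Klc1, Klc2 and Klc4 and the microtubule depolymerase Kif2a. In thymus over fresh MLN, Kif2a was among the higher genes and Klc2 and Klc4 among the lower ones. Of 19 tested, 4 were higher in thymus than in fresh MLN and 8 lower, with a median log2 fold change of -0.13, and 11 were higher and 5 lower in cultured than in fresh MLN, with a median of 0.37. In all, 84.2% in cultured over fresh MLN (77.6% of all genes), 63.2% in thymus over fresh MLN (47.3%) and 94.7% in cultured over thymus cells (72.7%) were called. Kif21b averaged 333 ± 14.3 CPM in cultured cells, 539.6 ± 11.8 CPM in thymus and 604 ± 62.1 CPM in fresh MLN, and Kif13a averaged 124 ± 5.23 CPM in cultured cells, 39.4 ± 1.14 CPM in thymus and 49.9 ± 3.33 CPM in fresh MLN. Of 17 other mitotic kinesin and spindle genes, 13 were higher in thymus than in fresh MLN and 1 lower, and 10 higher and 2 lower in cultured than in fresh MLN, which makes 70.6% in cultured over fresh MLN (77.6% of all genes), 82.4% in thymus over fresh MLN (47.3%) and 52.9% in cultured over thymus cells (72.7%). Hmmr, a spindle protein that binds Tpx2, averaged 51.8 ± 4.09 CPM in cultured cells, 38.9 ± 3.72 CPM in thymus and 1.05 ± 0.209 CPM in fresh MLN. Numa1, which anchors spindle poles, averaged 318 ± 1.06 CPM in cultured cells, 602 ± 16.8 CPM in thymus and 716 ± 12 CPM in fresh MLN. Hmmr rose in both comparisons with fresh MLN, and Numa1 was lower in cultured than in thymus cells (log2 fold change -0.92 ± 0.07).

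Of 15 genes of condensin II and cohesin, 9 were higher in thymus than in fresh MLN and 2 lower, 5 higher and 7 lower in cultured than in fresh MLN, and 1 higher and 11 lower in cultured than in thymus cells. Called were 80% in cultured over fresh MLN (77.6% of all genes), 73.3% in thymus over fresh MLN (47.3%) and 80% in cultured over thymus cells (72.7%). Esco2, which acetylates cohesin in S phase, averaged 16.4 ± 0.993 CPM in cultured cells, 26.2 ± 1.07 CPM in thymus and 0.769 ± 0.0744 CPM in fresh MLN. Cdca5, the sororin that protects cohesin, averaged 26.3 ± 2.15 CPM in cultured cells, 24.8 ± 1.32 CPM in thymus and 0.937 ± 0.274 CPM in fresh MLN. Nipbl, the loader of cohesin, averaged 204 ± 16.7 CPM in cultured cells, 406 ± 23.4 CPM in thymus and 492 ± 0.842 CPM in fresh MLN. Esco2 and Cdca5 were higher in both comparisons with fresh MLN, and Nipbl was lower in cultured than in thymus cells (log2 fold change -0.99 ± 0.08).

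All 30 DNA replication genes were higher in thymus than in fresh MLN and 27 in cultured than in fresh MLN, with median log2 fold changes of 1.75 and 1.28. Between cultured and thymus cells 1 was higher and 15 were lower. The shares called were 90% in cultured over fresh MLN (77.6% of all genes), 100% in thymus over fresh MLN (47.3%) and 53.3% in cultured over thymus cells (72.7%). Rrm2, a subunit of ribonucleotide reductase, averaged 223 ± 13.8 CPM in cultured cells, 146 ± 6.59 CPM in thymus and 7.58 ± 0.989 CPM in fresh MLN. Mcm6, a subunit of the replicative helicase, averaged 173 ± 22.9 CPM in cultured cells, 301 ± 1.95 CPM in thymus and 94.1 ± 0.583 CPM in fresh MLN. The sum of the 55 mitotic genes divided by the sum of the 30 replication genes was 1.96 and 1.93 in cultured cells, 1.68 and 1.67 in thymus and 0.819 and 0.827 in fresh MLN. The 3 groups did not overlap in this ratio, which is free of library scaling.

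Regulators of cell cycle exit and of mitotic transcription were listed as well. Of 22 tested, 11 were higher in thymus than in fresh MLN and 3 lower, 9 higher and 9 lower in cultured than in fresh MLN, and 6 higher and 10 lower in cultured than in thymus cells. Called in all were 81.8% in cultured over fresh MLN (77.6% of all genes), 63.6% in thymus over fresh MLN (47.3%) and 72.7% in cultured over thymus cells (72.7%). Foxm1, a transcription factor that acts at CHR promoters, averaged 51.5 ± 2.64 CPM in cultured cells, 66.1 ± 1.28 CPM in thymus and 5.70 ± 0.428 CPM in fresh MLN. Mybl2, the B-Myb that joins the MuvB core there, averaged 27 ± 2.66 CPM in cultured cells, 19.4 ± 2.21 CPM in thymus and 1.98 ± 0.0647 CPM in fresh MLN. Both were higher in each comparison with fresh MLN. Cdkn1a, the CDK inhibitor p21, averaged 271 ± 1.09 CPM in cultured cells, 3.79 ± 0.466 CPM in thymus and 2.16 ± 0.401 CPM in fresh MLN. Klf2, a factor of lymphocyte quiescence, averaged 4.98 ± 1.78 CPM in cultured cells, 265 ± 24.2 CPM in thymus and 169 ± 6.47 CPM in fresh MLN. Cdkn1a was higher in cultured than in thymus cells (log2 fold change 6.16 ± 0.10), and Klf2 was lower (log2 fold change -5.74 ± 0.16). Rbl1, the p107 pocket protein, averaged 56.1 ± 0.249 CPM in cultured cells, 122 ± 5.01 CPM in thymus and 104 ± 2.43 CPM in fresh MLN and was lower in cultured than in thymus cells (log2 fold change -1.12 ± 0.07).

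Markers of other cells differed between the groups, and their part in the results was not tested. Mast cell and basophil markers summed to 588 and 867 CPM in cultured cells, 117 and 122 CPM in thymus and 24.5 and 28.5 CPM in fresh MLN, of which Mcpt8 averaged 727 CPM in cultured cells and Cpa3 119 CPM in thymus, with 6 of the 7 markers under 1 CPM in each group. Erythroid markers summed to 439 and 425 CPM in cultured cells, 74.3 and 62.2 CPM in thymus and 26.3 and 24.7 CPM in fresh MLN, nearly all of it Tfrc, the transferrin receptor, which other dividing cells carry too, at means of 428, 63.8 and 21.3 CPM in the same groups. Macrophage markers summed to 25.2 and 27.6 CPM in cultured cells, 10.1 and 14.2 CPM in thymus and 90.01 and 95.6 CPM in fresh MLN, with 7, 7 and 3 of the 10 markers under 1 CPM in these groups. B cell markers summed to 118 and 131 CPM in cultured cells, 75.8 and 82.6 CPM in thymus and 202 and 157 CPM in fresh MLN, with 6, 7 and 6 of the 10 under 1 CPM. Markers of NK cells and ILC1 summed to 53.0 and 61.6 CPM in cultured cells, 10.6 and 11.9 CPM in thymus and 43.4 and 44.5 CPM in fresh MLN, with 7 and 5 of the 8 under 1 CPM in cultured cells and thymus. Nearly all of the cultured sum was Prf1, at means of 57.0, 5.12 and 16.5 CPM in the same groups. In cultured over fresh MLN, 7 of the 8 were lower and Prf1 was higher, where 38.1% and 39.4% of all genes were. Stromal and epithelial markers summed to 163 and 162 CPM in cultured cells, 142 and 135 CPM in thymus and 112 and 101 CPM in fresh MLN, nearly all of it Pecam1.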

How the data were processed

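Messenger RNA libraries of sorted ILC2 were made with a stranded Illumina TruSeq kit, per the labels. The values are raw counts of reads per Ensembl gene as deposited by the authors, whole numbers with no normalization. Per the submitters' processing notes, HTSeq 0.5.3p9 and mouse build mm9 (NCBIM37) were used. Aligner, annotation release and strand setting: not given in the sources used here. Counts of the 11 members that overlap a protein-coding gene on the opposite strand are therefore uncertain. Symbols, overlaps and exon lengths came from GENCODE M21 on a later build, which named 32919 of 37991 identifiers, so levels per kilobase are approximate. The only coordinates given are those of promoters, on GRCm38.p6, which is not the build of the counts.

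The members, their 10 roles, the other gene lists, the tests and the alternatives were chosen with earlier results of these data known. Genes with few counts were removed with filterByExpr in edgeR 4.0.16 (R 4.3.3), which left 16231 of 23871 genes with a count, all 55 members among them. One mean per group was fitted to all 6 libraries with TMM factors and the quasi-likelihood F test, two-sided, with Benjamini-Hochberg adjustment over all genes tested and a threshold of 0.05. The fit had 3 residual degrees of freedom. The SE of a log2 fold change was obtained by dividing its size by the root of its F statistic. The procedure was also run on simulated data in which few genes changed, as many up as down. That run could not test the scaling where a large share of genes changes. CPM, their sums and the ratios of counts are descriptions. Values in every library are given for the highest and lowest genes of each role and for genes that miss the test or go against most others in any comparison, which came to 48, and also for the other members. Of each other list named genes were drawn from at most 3 called genes, those with the largest change in a comparison and 5 CPM or more, and of each marker list the 2 most abundant genes; Rag1 and Rag2 were chosen after their values were seen. Replicate numbers were not used to pair the libraries in the main fit. Alternatives were library totals alone, RLE or upper-quartile factors, no filter beyond 1 count, DESeq2 1.42.0, a fit to the 4 libraries compared, a replicate block, each library left out, a test against a 2-fold change and, added after the data were seen, scaling on the members. With 2 libraries a group no outlier could be tested.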

Additional observations from a re-analysis of the deposited data

How the results depend on the processing

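In thymus over fresh MLN the 55 genes stayed higher under every alternative scaling, filter, tool and left-out library, and 54 stayed higher in cultured than in fresh MLN; a test against a 2-fold change kept 51 and 50. That test lowered the counts over all genes to 897 higher and 401 lower for thymus over fresh MLN, 3189 and 2487 for cultured over fresh MLN, and 2429 and 2026 for cultured over thymus cells. The single lower call of cultured against fresh MLN, that of Smc4, went to 0 with RLE factors, DESeq2 and the 2-fold test, and its count ran from 0 to 1 when libraries were left out in turn; at an unadjusted p under 0.05 it was 1 with DESeq2 and 0 with RLE factors and the 2-fold test in edgeR. Between cultured and thymus cells, library totals alone gave 3 higher and 34 lower, DESeq2 gave 8 lower, the 2-fold test 0 higher (also 0 at an unadjusted p under 0.05) and 1 lower, and scaling on the members, chosen after seeing the data, 15 higher and 6 lower. Leaving out single libraries gave 7 to 13 higher and 6 to 18 lower. The median log2 fold change of the members was 3.61 for cultured over fresh MLN and -0.38 for cultured over thymus with library totals alone, and with libraries left out it ran from 3.77 to 4.02 and from -0.13 to -0.0429 in these comparisons, and from 3.90 to 3.98 for thymus over fresh MLN. With libraries left out, all genes called higher and lower ran from 3365 to 3948 and 2783 to 3293 in thymus over fresh MLN, 5998 to 6629 and 5600 to 6324 in cultured over fresh MLN, and 5082 to 5784 and 5477 to 6212 in cultured over thymus. With library totals alone Ccna2 turned to -0.18 in cultured over thymus (edgeR adjusted p = 0.0347) and Kif20a to -0.0249. The causes of these shifts were not tested. Same-numbered libraries had correlations of their deviations from group means of 0.0351 (cultured with fresh MLN), 0.0298 (cultured with thymus) and 0.133 (thymus with fresh MLN). With 2 libraries a group these values cannot tell whether same-numbered libraries share an origin, which is not stated. With a replicate block the members called were 12 higher and 17 lower in cultured over thymus, 54 and 1 in cultured over fresh MLN, and 55 higher in thymus over fresh MLN. A library left out leaves its group with 1 library, which is assumed to vary like the others. The lowest levels, near 11 counts in fresh MLN, limit how precisely the largest fold changes are known.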
